A study of Mus musculus with 9 samples.

Results

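The genes described here encode the transforming growth factor β (TGF-β) ligands, their receptors and the latent TGF-β binding proteins (LTBPs). They were taken by symbol, and the list was chosen with earlier results of these data known. It comprises *Tgfb1*, *Tgfb2*, *Tgfb3*, *Tgfbr1*, *Tgfbr2*, *Tgfbr3*, *Ltbp1*, *Ltbp2*, *Ltbp3* and *Ltbp4*. All 10 were found among the 55416 genes of the count table, and all 10 were among the 13679 genes with enough reads to be tested.

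Expression was measured by RNA sequencing in MC3T3-E1 cells, a murine pre-osteoblast line from calvarial bone with the genotype labelled WT. All cells had been kept in osteogenic medium with 10 mM β-glycerophosphate (BGP), 50 µg/ml ascorbic acid and 0.1 µM dexamethasone. The labels give this medium until treatment at day 27, while the study's methods leave BGP out during the last week. The cells then received 4 mM BGP, an organic phosphate, or 4 mM NaHPO4, an inorganic phosphate mixture of sodium salts, for 16 h. Others received no added phosphate (Control). The study states that the culture medium itself contained sodium phosphate in all conditions. RNA of day 28 was sequenced from 3 libraries per condition, 9 in all. Nothing states that these came from separately grown cultures, so p-values describe the spread between these libraries only. The line is a model grown as a single cell type without the other cells of bone, and a change in bulk RNA cannot be divided into a change in the number of expressing cells and a change in RNA per cell.

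TGF-β is secreted as a latent complex in which its own propeptide shields it, and LTBPs tether that complex to fibrillin and fibronectin in the extracellular matrix. Integrins and proteases release the ligand, which is bound by the type II receptor TGFBR2. This receptor phosphorylates the type I receptor TGFBR1, which in turn activates SMAD2 and SMAD3. In bone, matrix is a large store of latent TGF-β, and the released factor acts on the recruitment and differentiation of osteoblasts and on the perilacunar remodelling by osteocytes.

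Promoter sequence was available for 8 of the 10 genes from RefSeq (GRCm38.p6), and not for *Tgfb3* and *Tgfbr3*. Bases 250 to 51 before the transcription start are printed for *Ltbp2*, the gene with the largest change, and for *Tgfb1* and *Ltbp4*. *Ltbp2* rose with BGP, and *Tgfb1* and *Ltbp4* fell with NaHPO4 (values further on). For *Ltbp4* the start labelled 2 among its 3 starts is shown, which has the most EGR matches of the 3. The windows lie at chr12:84876542-84876741 on the minus strand (*Ltbp2*), chr7:25686752-25686951 on the plus strand (*Tgfb1*) and chr7:27333699-27333898 on the minus strand (*Ltbp4*), and read 5′ to 3′ toward the gene. Capitals mark matches, on either strand, to the SP/KLF motif GGGCGG and the EGR motif GCGNGGGCG.
Ltbp2: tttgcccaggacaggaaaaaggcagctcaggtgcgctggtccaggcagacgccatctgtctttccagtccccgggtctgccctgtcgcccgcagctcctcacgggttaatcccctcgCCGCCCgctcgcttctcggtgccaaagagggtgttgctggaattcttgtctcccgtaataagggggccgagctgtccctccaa
Tgfb1: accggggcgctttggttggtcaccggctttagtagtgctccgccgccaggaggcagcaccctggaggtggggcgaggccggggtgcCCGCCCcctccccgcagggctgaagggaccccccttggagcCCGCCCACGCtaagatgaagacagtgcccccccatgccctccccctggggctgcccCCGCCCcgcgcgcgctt
Ltbp4: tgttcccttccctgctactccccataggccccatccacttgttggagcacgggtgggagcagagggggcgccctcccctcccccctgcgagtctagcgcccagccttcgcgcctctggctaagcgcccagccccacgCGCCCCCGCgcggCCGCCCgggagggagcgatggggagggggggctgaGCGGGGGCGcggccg

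The *Ltbp2* window held an SP/KLF match at 133 bases before the start and no EGR match. In the *Tgfb1* window SP/KLF matches began 164, 123 and 67 bases before the start, and an EGR match at 122 overlapped the SP/KLF match at 123, so those letters were counted for both. The *Ltbp4* window held EGR matches 113 and 65 bases before the start and an SP/KLF match at 100. Of its other starts, the window of that labelled 1 held 0 EGR matches and 2 SP/KLF matches, and that labelled 3, which overlaps the printed window, held 1 EGR match and 3 SP/KLF matches. The start labelled 1 of *Tgfbr1*, a gene with no call in any comparison, also held an EGR match, 192 bases before the start, and 2 SP/KLF matches. Among 32514 distinct mouse windows of the same length, 24.8% held the SP/KLF motif and 3.07% the EGR motif. The printed *Ltbp4* start was picked by its EGR matches, so its matches cannot be read against the share of single windows. GC content was 62% for *Ltbp2*, 74% for *Tgfb1* and, for the *Ltbp4* starts labelled 1, 2 and 3, 60%, 75.5% and 75%, against a median of 51.5% over all windows. The SMAD motif CAGACA, present in 14.1% of all windows, was found in none of these 3 windows but in those of *Tgfb2*, of the start labelled 2 of *Tgfbr1* and of the start labelled 2 of *Ltbp1*. The start labelled 1 of *Ltbp1* held the cAMP response element TGACGTCA, which 0.833% of all windows hold. The windows of *Tgfbr2* and *Ltbp3* held no match to the motifs searched, which also included AP-1 (TGANTCA) and the E-box CACGTG.

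Total counts were between 21390839 and 28234404 per library, and NaHPO4 replicates 1 and 2 were deeper than every other library. Libraries of the same condition differed by more than sampling noise. *Fgf23*, the phosphate-regulating hormone of osteocytes, was 8.39 ± 1.60 CPM (counts scaled to the same library total) with BGP, 1.20 ± 0.367 in Control and 1.54 ± 0.271 with NaHPO4 (SD, n = 3). *Dmp1*, an osteocyte matrix gene, was 76.0 ± 10.4 CPM in Control, 552 ± 41.8 with BGP and 349 ± 30.3 with NaHPO4. The summed level of 6 osteoblast markers (*Runx2*, *Sp7*, *Col1a1*, *Alpl*, *Bglap*, *Ibsp*) ranged from 54914 to 58624 CPM in Control, from 53167 to 56826 with BGP and from 48698 to 51946 with NaHPO4. Of other cell types, the chondrocyte list ranged from 248 to 306 CPM in Control, from 339 to 446 with BGP and from 185 to 264 with NaHPO4. Of its 5 genes, *Matn1* was at 0 throughout and 3 had enough reads to be tested. With BGP versus Control these 3 had positive log2 fold changes, from 0.03 to 1.27. With NaHPO4 versus Control 1 was positive and 2 negative, from -0.45 to 0.81. The osteocyte list, led by *Dmp1*, ranged from 138 to 159 CPM in Control, from 600.5 to 687 with BGP and from 386 to 445 with NaHPO4. Its members did not move together. With BGP versus Control 3 of its 6 genes had a positive and 3 a negative log2 fold change, from -0.21 to 2.86. With NaHPO4 versus Control 3 were also positive and 3 negative, from -1.68 to 2.19. The leukocyte and osteoclast list, mostly *Ctsk*, ranged from 290.2 to 297 CPM in Control, from 276 to 287 with BGP and from 250.2 to 263 with NaHPO4. The skeletal muscle list stayed at or below 10.1 CPM with *Myod1* and *Myog* at 0, the adipocyte list at or below 15.7 CPM with *Cfd* at 0, and the endothelial list at or below 0.187 CPM with *Kdr* and *Emcn* at 0.

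The genes were expressed at very different levels, which were compared as CPM per kilobase of exon. *Ltbp1* and *Tgfb1* were the most highly expressed in Control, with 43.0 ± 0.654 and 41.3 ± 2.59 CPM per kb (SD, n = 3), and did not differ beyond their spread. *Tgfbr3* followed with 35.8 ± 1.35. *Tgfbr1* reached 18.3 ± 1.03, *Ltbp4* 14.8 ± 0.332, *Ltbp3* 13.5 ± 0.380, *Tgfbr2* 11.7 ± 0.263 and *Tgfb3* 9.57 ± 0.432 CPM per kb. Apart from the first pair, neighbours in this order were farther apart than their SDs. *Tgfb2* with 2.33 ± 0.194 and *Ltbp2* with 0.956 ± 0.103 lay below the median of all tested genes. That median was 3.89 CPM per kb and was taken over all 9 libraries, treated ones included. By the mean of the same 9 libraries, the genes ran from the 24.5th percentile of tested genes (*Ltbp2*) to the 95.7th (*Ltbp1*). When the length of the canonical transcript was used in place of all exons, *Tgfb1* (94.8 in Control) stood above *Ltbp1* (82.9). *Tgfbr1* (20.8) then lay below *Ltbp4* (23.6) and *Ltbp3* (23.4), which were close to each other, as were *Tgfbr2* (12.1) and *Tgfb3* (12.0). The order within these groups, and the gaps between neighbours, thus depend on the length chosen.

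**Figure D1:**
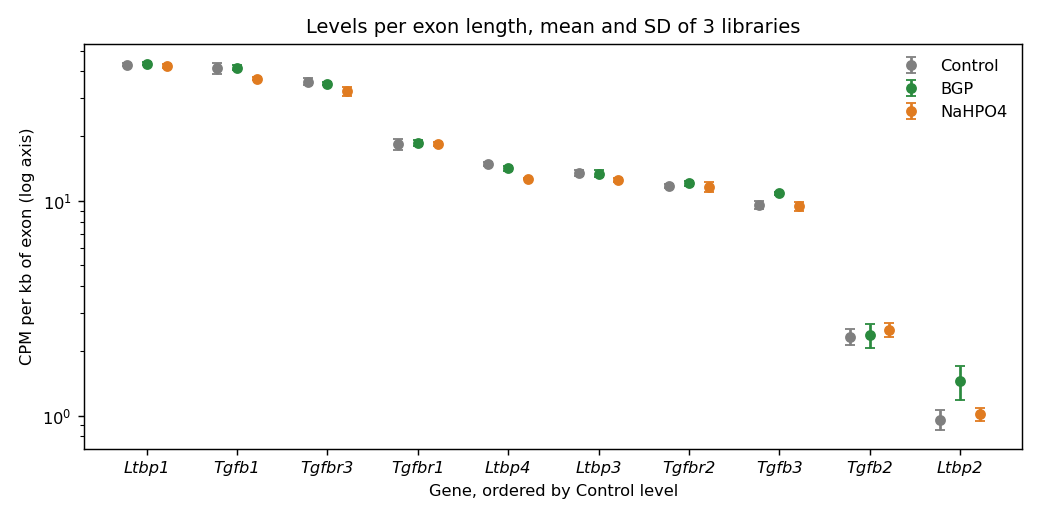
Expression of the 10 genes as CPM per kilobase of exon on a log axis, ordered by the Control level, with points for the mean and bars for the SD of 3 libraries per condition. *Ltbp1* (43.0 in Control) stands at the top and *Ltbp2* (0.956) at the bottom, and in no gene does a treatment shift the level by as much as the genes differ from end to end.

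Each family was dominated by a single member. Of the summed per-kilobase level of the ligands, *Tgfb1* held 77.6% ± 1.05 in Control, 75.9% ± 0.709 with BGP and 75.7% ± 0.484 with NaHPO4 (SD, n = 3). The share of *Tgfb3* was 18% ± 0.529 in Control and 19.8% ± 0.0953 with BGP, and *Tgfb2* held 4.4% ± 0.541 in Control. *Tgfbr3*, which encodes the co-receptor betaglycan, held 54.4% ± 0.178 of the receptor total in Control and 51.8% ± 1.26 with NaHPO4. *Ltbp1* accounted for 59.6% ± 0.367 of the LTBP total in Control, whereas *Ltbp2* held 1.32% there and 1.99% with BGP. These shares are a description of the mixture and were not tested. They rest on the length of all exons, and their SDs do not cover the choice of length. With the canonical length, the Control levels of *Tgfb1*, *Tgfb2* and *Tgfb3* were 94.8, 2.79 and 12.0 CPM per kb.

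BGP was compared with Control to find which of the genes responded to this organic phosphate. *Ltbp2* and *Tgfb3* were higher with BGP, which made 2 of 10 past a false discovery rate (FDR) of 0.05 in edgeR's quasi-likelihood test, against 2.53% of all tested genes in either direction and 1.86% in this direction. Of all tested genes 0.665% were lower. None of the 10 was lower past this threshold or at an unadjusted p below 0.05, and DESeq2 called 1 higher and 0 lower. *Ltbp2* alone was a differentially expressed gene (DEG), defined by an FDR below 0.05 and an absolute log2 fold change (log2FC) above 0.5, a class that held 0.556% of tested genes. The median log2FC of the 10 genes was 0.01, beside -0.00 over all tested genes. In 3 of 10 the libraries of both conditions did not overlap, beside 18.5% of tested genes.

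NaHPO4 was compared with Control to ask the same of this inorganic phosphate. *Ltbp4*, *Tgfb1* and *Tgfbr3* were lower, 3 of 10 against 7.38% of all tested genes in either direction and 3.95% in this direction. None was higher past the FDR threshold, against 3.43% of tested genes, or at an unadjusted p below 0.05, where 4 were lower, and DESeq2 also called 3 lower and 0 higher. None of the 10 was a DEG, against 0.716% of tested genes. Their median log2FC was -0.03, beside 0.00 over all tested genes, and in 4 of 10 the libraries did not overlap, beside 23.2% of tested genes. The share of higher genes among all called was 46.5% in this comparison and 65.3% when libraries were scaled by their total counts alone. In the comparison of BGP with NaHPO4 it was 62.0% and 39.5% with that scaling, under which no change called among the 10 genes reversed.

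The direct comparison of BGP with NaHPO4 tests the difference between the responses, which share their Control libraries. *Tgfb1*, *Tgfb3*, *Tgfbr3*, *Ltbp2* and *Ltbp4* were higher with BGP than with NaHPO4, 5 of 10 against 5.38% of tested genes in either direction and 3.33% in this direction. None was lower by the FDR, against 2.05% of tested genes, or at an unadjusted p below 0.05, and DESeq2 called 5 higher and 0 lower. *Ltbp2* alone was a DEG, against 0.585% of tested genes. The median log2FC was 0.11, beside -0.00 over all tested genes, and in 6 of 10 the libraries did not overlap, beside 21.2% of tested genes.

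**Figure D2:**
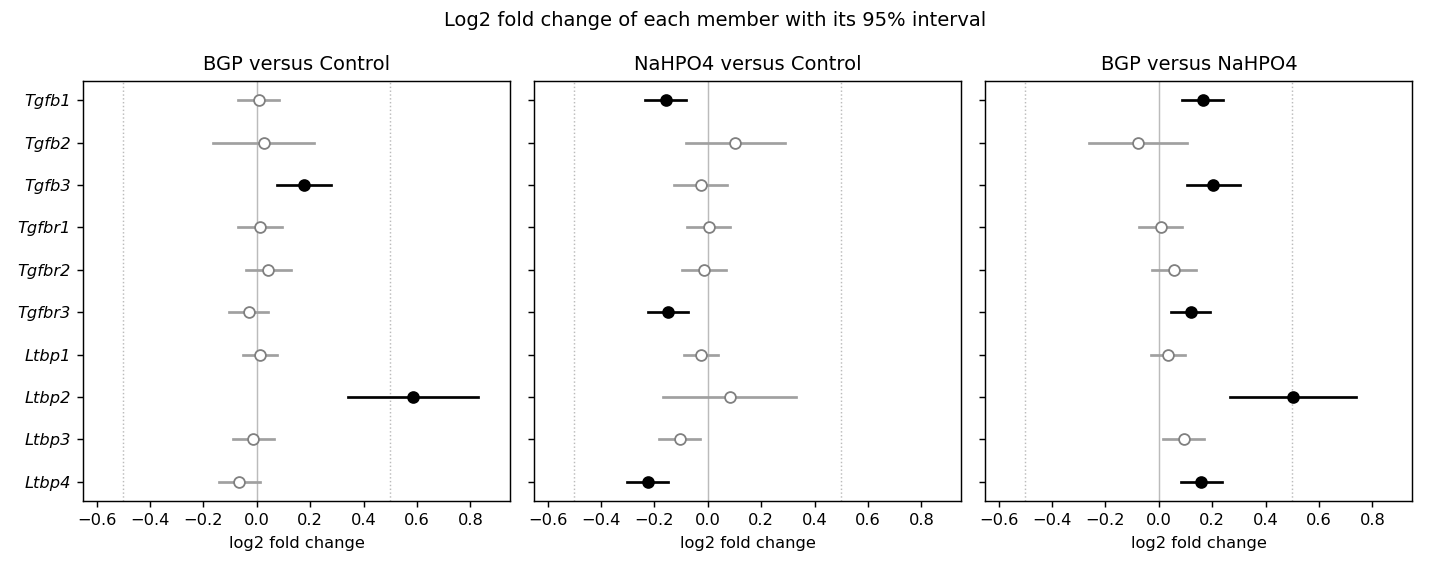
Log2FC of the 10 genes (rows) in BGP versus Control, NaHPO4 versus Control and BGP versus NaHPO4, with points for the estimate, bars for its 95% interval, filled points for an FDR below 0.05 and dotted lines at 0.5 in either direction. *Ltbp2* lies at 0.59 and 0.50 in the BGP comparisons, while the declines with NaHPO4 of *Ltbp4* (-0.23), *Tgfb1* (-0.16) and *Tgfbr3* (-0.15) stay inside the dotted lines.

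Of the ligands, *Tgfb1* (ENSMUSG00000002603, GRCm39 chr7:25386390-25404506, plus strand) encodes the most abundant isoform in bone matrix. Its level was 212, 196 and 222 CPM in the Control libraries, 214, 215 and 204 with BGP, and 191, 186 and 188 with NaHPO4. All NaHPO4 libraries were below all Control and all BGP libraries, while BGP and Control overlapped. *Tgfb1* fell by 0.16 on the log2 scale with NaHPO4 (SE 0.0381, fold 0.897, edgeR FDR 0.00611) and in BGP exceeded NaHPO4 by 0.16 (SE 0.0382, FDR 0.00546). For BGP versus Control the log2FC was 0.01 with a 95% interval from -0.07 to 0.08. Without Control replicate 3 the decline with NaHPO4 was -0.11 and its edgeR FDR 0.0927.

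*Tgfb3* (ENSMUSG00000021253, GRCm39 chr12:86102756-86126301, minus strand) encodes an isoform required for palate fusion. It measured 48.4, 48.7 and 52.5 CPM in Control, 57.1, 56.6 and 55.5 with BGP, and 47.9, 47.3 and 51.8 with NaHPO4. Every BGP library was above every library of the other conditions, which overlapped each other. *Tgfb3* rose 1.13-fold with BGP (log2FC 0.18, SE 0.0498, edgeR FDR 0.0481) and in BGP exceeded NaHPO4 1.15-fold (log2FC 0.20, SE 0.0491, FDR 0.00772). With NaHPO4 versus Control the log2FC was -0.03 with an interval from -0.13 to 0.07.

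The rise of *Tgfb3* over Control was close to the threshold and passed it in 8 of 19 alternative analyses. Without Control replicate 1 or 2 its edgeR FDR was 0.221 or 0.170, without BGP replicate 1, 2 or 3 it was 0.179, 0.132 or 0.0851, and without NaHPO4 replicate 2 it was 0.0550. The difference from NaHPO4 had an FDR of 0.0643 without NaHPO4 replicate 2. Of the exons of *Tgfb3*, 179 bases overlap *Ttll5* on the opposite strand, which had 307 to 502 counts per library and log2FCs of 0.03, 0.10 and -0.07 in the 3 comparisons, none past the FDR threshold. Whether strand was used in counting is not given in the sources used here.

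*Tgfb2* (ENSMUSG00000039239, GRCm39 chr1:186354985-186438294, minus strand), the isoform that depends most on betaglycan for receptor binding, was the least expressed ligand. Its libraries ranged from 12.8 to 16.7 CPM over all conditions, and all conditions overlapped. The log2FC was 0.03 with BGP (95% interval -0.17 to 0.22) and 0.10 with NaHPO4 (-0.08 to 0.29).

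**Figure D3:**
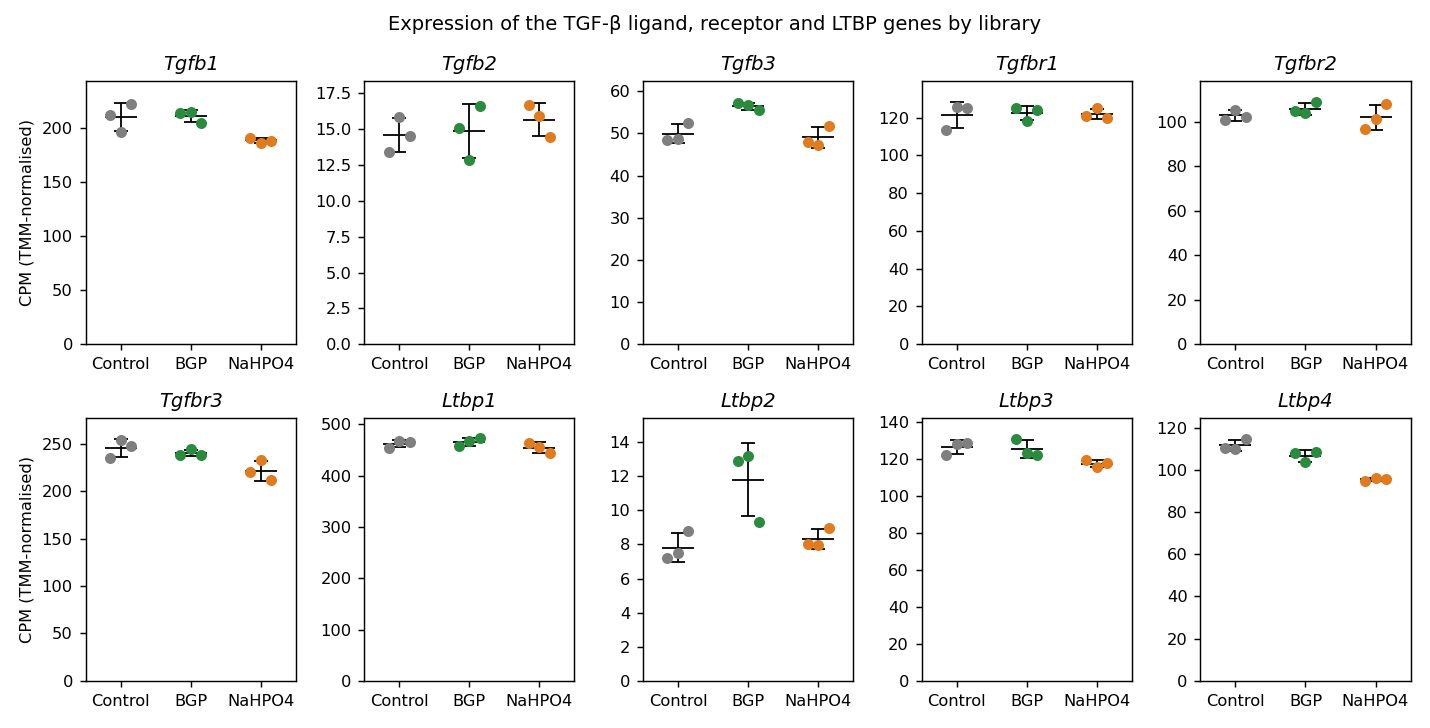
TMM-normalised CPM (vertical axes from 0, a scale per gene) of the 10 genes in Control (grey), BGP (green) and NaHPO4 (orange), with points for libraries and lines for mean and SD. The BGP libraries of *Ltbp2* lie between 9.33 and 13.2 CPM, above those of Control (7.20 to 8.78), and the NaHPO4 libraries of *Ltbp4* between 94.7 and 95.9, below those of Control (110 to 114).

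No change was detectable in the signalling receptors. *Tgfbr1* (ENSMUSG00000007613, GRCm39 chr4:47353134-47414931, plus strand), the type I kinase, ranged from 114 to 126 CPM in Control, from 118 to 125 with BGP and from 120 to 125 with NaHPO4. Its log2FC was 0.01 with BGP (95% interval -0.07 to 0.09) and 0.00 with NaHPO4 (-0.08 to 0.08). *Tgfbr2* (ENSMUSG00000032440, GRCm39 chr9:115913361-116004800, minus strand), the type II kinase, had means of 103 ± 2.31 CPM in Control, 106 ± 2.68 with BGP and 102 ± 5.72 with NaHPO4 (SD, n = 3). Its log2FC was 0.04 with BGP (-0.04 to 0.13) and -0.01 with NaHPO4 (-0.10 to 0.07). For both kinases all conditions overlapped, and each interval excluded a change of 0.2 on the log2 scale in either direction.

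*Tgfbr3* (ENSMUSG00000029287, GRCm39 chr5:107249402-107437623, minus strand) encodes betaglycan, which presents ligand to the type II receptor and whose shed ectodomain can sequester it. It measured 235, 253 and 247 CPM in Control, 238, 244 and 238 with BGP, and 220, 232 and 211 with NaHPO4. Every NaHPO4 library was below every Control and every BGP library. *Tgfbr3* fell by 0.15 on the log2 scale with NaHPO4 (SE 0.0366, fold 0.901, edgeR FDR 0.00654), and with BGP versus Control its log2FC was -0.03 (95% interval -0.11 to 0.04). In BGP it exceeded NaHPO4 1.09-fold (log2FC 0.12, SE 0.0367, FDR 0.0490), a difference that passed in 9 of 19 alternatives. Without NaHPO4 replicate 3 the edgeR FDR was 0.0670 for the decline and 0.272 for the difference between treatments. The exons of *Tgfbr3* share 297 bases with *Gm43422* on the same strand, which had 8 to 18 counts per library. The difference between treatments had an edgeR FDR of 0.0527 without Control replicate 3, of 0.107, 0.175 or 0.0900 without BGP replicate 1, 2 or 3, and of 0.100 without NaHPO4 replicate 1.

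Among the LTBPs, *Ltbp2* (ENSMUSG00000002020, GRCm39 chr12:84829986-84923306, minus strand) showed the largest change of the 10 genes. It encodes a microfibril-associated member of the family that, unlike the others, does not bind latent TGF-β. Its counts were 154, 172 and 223 in Control, 286, 293 and 217 with BGP, and 220, 227 and 230 with NaHPO4, which after scaling for depth were 7.20, 7.48 and 8.78 CPM, 12.9, 13.2 and 9.33 CPM, and 8.01, 7.97 and 8.98 CPM.

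All BGP libraries of *Ltbp2* were above all others, although BGP replicate 3 lay close to the highest Control and NaHPO4 libraries. *Ltbp2* rose 1.5-fold with BGP (log2FC 0.59, SE 0.120, 95% interval 0.34 to 0.83, edgeR FDR 0.00239) and in BGP exceeded NaHPO4 1.42-fold (log2FC 0.50, SE 0.117, interval 0.27 to 0.74, FDR 0.00522). NaHPO4 and Control overlapped, with a log2FC of 0.08 (interval -0.17 to 0.33). The rise over Control passed in 18 of 19 alternatives, with log2FCs from 0.50 to 0.73. The difference from NaHPO4 had an edgeR FDR of 0.0576 without BGP replicate 1 and of 0.0690 without BGP replicate 2. The study retested its BGP-specific genes, *Ltbp2* among them, by quantitative PCR with other phosphates. It named *Eln*, *Hes1* and *Skil*, but not *Ltbp2*, as regulated by the organic and not the inorganic phosphates. An antisense gene, *D030025P21Rik*, shares 764 exon bases with *Ltbp2* and had at most 1 count in a library. The chondrocyte marker sum, given with the libraries, also differed between BGP and Control, and its part in this result was not tested.

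*Ltbp4* (ENSMUSG00000040488, GRCm39 chr7:27004086-27037117, minus strand), which binds mainly latent TGF-β1 and guides elastic fibre assembly, was lower with NaHPO4. It measured 110, 110 and 114 CPM in Control, 108, 103 and 108 with BGP, and 94.7, 95.9 and 95.7 with NaHPO4. No condition overlapped another, and the NaHPO4 libraries were the lowest and the closest together. *Ltbp4* fell by 0.23 on the log2 scale with NaHPO4 (SE 0.0377, fold 0.855, edgeR FDR 6.39e-05), a call made in all 19 alternatives. In BGP it exceeded NaHPO4 1.12-fold (log2FC 0.16, SE 0.0379, FDR 0.00657). With BGP versus Control its log2FC was -0.07 (95% interval -0.14 to 0.01), which did not pass the test.

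*Ltbp3* (ENSMUSG00000024940, GRCm39 chr19:5790932-5808669, plus strand), needed for skeletal growth and for the secretion of latent TGF-β in bone, measured 122, 128 and 129 CPM in Control, 131, 123 and 122 with BGP, and 119, 115 and 117 with NaHPO4. Its NaHPO4 libraries lay below all others, with a log2FC versus Control of -0.11 (95% interval -0.18 to -0.03) that did not pass the edgeR test (FDR 0.0858). *Ltbp1* (ENSMUSG00000001870, GRCm39 chr17:75312519-75699507, plus strand), the prototype LTBP, ranged from 444 to 473 CPM over the 9 libraries with all conditions overlapping. Its log2FC was 0.01 with BGP (-0.05 to 0.08) and -0.02 with NaHPO4 (-0.09 to 0.04), the narrowest intervals of the 10 genes.

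The declines with NaHPO4 stood beside a lower osteoblast marker sum in the same libraries, in which 3 of 6 osteoblast markers fell past the FDR threshold and 0 rose. The part of these markers in the declines of *Ltbp4*, *Tgfb1* and *Tgfbr3* was not tested.

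Of the 5 genes past the threshold in any comparison, 4 lay in pairs on 2 chromosomes. *Ltbp2* and *Tgfb3*, the pair that rose with BGP, are 1.18 Mb apart on chromosome 12, and *Tgfb1* and *Ltbp4*, which fell with NaHPO4, are 1.60 Mb apart on chromosome 7. Of 19 tested genes between *Ltbp2* and *Tgfb3*, 0 passed the FDR threshold for BGP versus Control, beside 2.53% of all tested genes. The median log2FC of the 19 was 0.02. *Acyp1* and *Fos* in this interval were lower with NaHPO4 versus Control, and *Pgf* and *Fos* were higher in BGP versus NaHPO4, the direction of *Ltbp2* and *Tgfb3*. Of 10 tested genes between *Tgfb1* and *Ltbp4*, only *Axl*, a receptor kinase gene, passed for NaHPO4 and for BGP versus Control. It was higher in both, while 0 passed in BGP versus NaHPO4. Of all tested genes, 7.38% passed for NaHPO4 versus Control and 5.38% for BGP versus NaHPO4. With only 19 and 10 genes, the counts in these intervals cannot be told apart from the shares of all genes. As a description over 9 libraries, which share their conditions and depth, log2 CPM of *Ltbp2* and *Tgfb3* had a Pearson r of 0.90. For *Tgfb1* and *Ltbp4* it was 0.81. Pairs on different chromosomes reached 0.81 (*Ltbp3* and *Ltbp4*), 0.80 (*Tgfbr3* and *Ltbp4*) and 0.73 (*Tgfb1* and *Ltbp3*), while *Tgfb1* and *Tgfb2* had -0.54.

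Over the same 9 libraries the genes whose pattern was most like that of *Ltbp2* were *3110082I17Rik* (r = 0.979), *Zfr* (0.969), *Trim8* (0.951), *Smad7* (0.941) and *Zfand5* (0.940). *Tgfb3* ranked 27 of 13678 by this measure. Their changes with BGP versus Control were smaller than that of *Ltbp2*, with log2FCs from 0.12 (*Zfr* and *Zfand5*) to 0.23 (*3110082I17Rik* and *Smad7*).

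The rest of the pathway was described by 7 lists holding 95 genes outside the 10, of which 85 were tested. With BGP versus Control 12 rose and 1 fell past the edgeR FDR threshold, with a median log2FC of 0.04. With NaHPO4 versus Control 6 rose and 19 fell, with a median of -0.03. Between BGP and NaHPO4, 24 were higher with BGP and 3 lower, with a median of 0.11. Of all tested genes, 1.86% rose and 0.665% fell with BGP, 3.43% rose and 3.95% fell with NaHPO4, and 3.33% were higher and 2.05% lower in BGP than in NaHPO4. No test was made of the lists as groups.

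**Figure D4:**
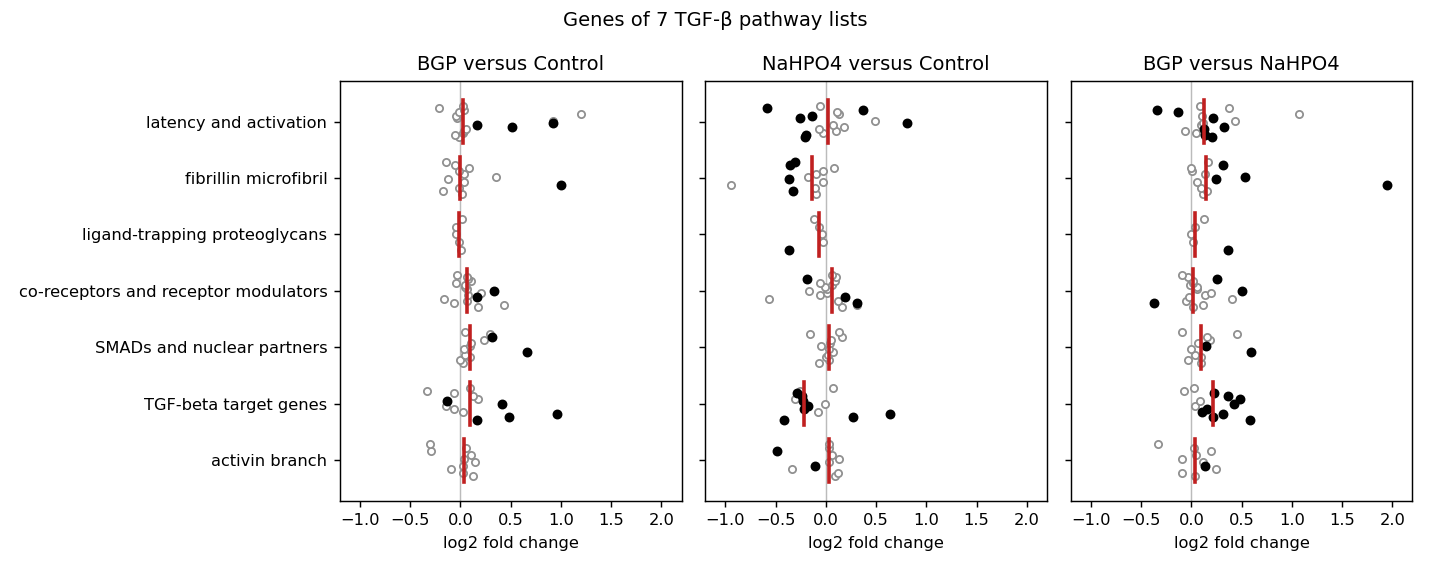
Log2FC of the tested genes of 7 TGF-β pathway lists (rows) in the 3 comparisons, with filled points for an FDR below 0.05, open points for the rest and red lines for the list medians. The medians of the target gene list lie at 0.10 for BGP, -0.22 for NaHPO4 and 0.21 between the treatments, and *Eln* (1.95) is the point farthest right.

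Upstream of the ligands, the list of latency and activation factors had 3 genes higher and 0 lower of 16 tested with BGP, and 2 higher and 5 lower with NaHPO4. *Itgb8*, whose integrin activates the LTBP-bound latent complex, was 5.47, 5.13 and 5.20 CPM in Control, 11.1, 9.21 and 9.63 with BGP, and 8.30, 8.92 and 10.4 with NaHPO4. Both treatments were above Control without overlap, with a log2FC of 0.92 for BGP (edgeR FDR 2.1e-06) and 0.81 for NaHPO4 (FDR 1.06e-05). The integrin genes *Itgb3* (log2FC 0.51, FDR 0.000457) and *Itgb5* (0.16, FDR 0.00225) rose with BGP. With NaHPO4 the urokinase gene *Plau* rose by 0.37, whereas the transglutaminase gene *Tgm2*, whose enzyme crosslinks LTBP1 into matrix, fell by 0.59 and the membrane protease gene *Mmp14* fell by 0.26.

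Between the treatments, 5 genes of that list were higher with BGP and 2 lower. *Mmp14* was higher by 0.22 and *Itgb3* by 0.33 on the log2 scale, and *Plau* fell by 0.34 from NaHPO4 to BGP. *Itgb3* lost this call without BGP replicate 1 or 2 (edgeR FDR 0.0787 or 0.0843) or NaHPO4 replicate 1 or 2 (0.0972 or 0.176), and *Plau* without BGP replicate 1 (0.0745). *Itgb6* and *Nrros* had at most 9 counts in a library and were not tested. The list shares *Ctsk*, which fell with NaHPO4, with the leukocyte and osteoclast markers.

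The matrix that anchors LTBPs was described by 12 tested genes of fibrillin microfibrils and elastic fibres, of which 1 rose with BGP and 4 fell with NaHPO4, while 4 were higher and 0 lower with BGP than with NaHPO4. *Fbln5*, which joins elastin to microfibrils together with LTBP4, was 243, 249 and 253 CPM in Control, 212, 237 and 236 with BGP, and 170, 210 and 197 with NaHPO4. Its NaHPO4 libraries were the lowest, with a decline of -0.37 on the log2 scale versus Control (edgeR FDR 7.56e-07) beside the decline of -0.23 of *Ltbp4*. The crosslinking enzyme gene *Loxl1* fell by 0.36 and *Adamtsl4*, whose product binds fibrillin, by 0.33 with NaHPO4. Without Control replicate 3 the FDR of *Loxl1* was 0.0514.

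*Eln*, the elastin gene, was 2.01, 1.83 and 1.18 CPM in Control, 5.05, 2.38 and 2.58 with BGP, and 0.546, 0.842 and 1.21 with NaHPO4. The BGP libraries were above the others, while Control and NaHPO4 overlapped. Its log2FC was 1.95 between BGP and NaHPO4 (edgeR FDR 2.36e-05) and 1.00 for BGP versus Control (FDR 0.0378). Without BGP replicate 1 the latter was 0.58 with an FDR of 0.483, and without Control replicate 1, 2 or 3 the FDR was 0.0525, 0.0742 or 0.200.

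*Fbn1*, which encodes the fibrillin that LTBPs bind, ranged from 13.5 to 19.2 CPM in Control, from 17.2 to 22.7 with BGP and from 9.83 to 18.7 with NaHPO4. All conditions overlapped. Its log2FC between BGP and NaHPO4 was 0.53 (edgeR FDR 0.00994), and it was 0.32 without NaHPO4 replicate 1 (FDR 0.120) and 0.76 without NaHPO4 replicate 3. The call was also lost without BGP replicate 1 or 3 (FDR 0.0876 or 0.0510).

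Of 5 matrix proteoglycans that trap TGF-β, 0 passed for BGP versus Control, 0 had an unadjusted p below 0.05 there, and DESeq2 called 0. *Aspn*, which encodes the TGF-β-binding asporin, fell by 0.36 with NaHPO4 (edgeR FDR 2.13e-06) and in BGP exceeded NaHPO4 by 0.37 (FDR 2.66e-06).

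At the receptor level, 17 co-receptor and modulator genes were tested, with 2 higher in BGP and 2 higher and 1 lower in NaHPO4. *Pmepa1*, a TGF-β-induced gene whose product holds back receptor-regulated SMADs, was 36.4, 34.5 and 38.9 CPM in Control, 45.6, 48.9 and 44.4 with BGP, and 31.6, 33.0 and 33.3 with NaHPO4. The conditions did not overlap, with log2FCs of 0.34 for BGP (edgeR FDR 0.000153), -0.17 for NaHPO4 (FDR 0.0714) and 0.51 between them (FDR 5.19e-08). *Fkbp1a*, whose product keeps the type I receptor inactive, rose by 0.17 with BGP and 0.19 with NaHPO4. *Cd109*, a TGF-β co-receptor that dampens signalling, rose by 0.31 with NaHPO4 with a log2FC of -0.37 for BGP versus NaHPO4 (FDR 5.19e-08). *Vasn*, whose product binds TGF-β, fell by 0.19 with NaHPO4. In BGP it exceeded NaHPO4 by 0.26.

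Among the 12 SMADs and nuclear partners, 2 rose with BGP, 0 passed with NaHPO4 versus Control by edgeR or DESeq2, where 2 were higher at an unadjusted p below 0.05, and 2 were higher with BGP than with NaHPO4. *Skil*, which encodes the SMAD corepressor SnoN, was 29.2, 26 and 29.6 CPM in Control, 46.4, 46.7 and 41.1 with BGP, and 28.3, 30.4 and 30.3 with NaHPO4. Its BGP libraries were above all others, with a log2FC of 0.66 versus Control (edgeR FDR 8.59e-10) and 0.59 versus NaHPO4 (FDR 1.01e-08), and Control and NaHPO4 overlapped. The corepressor gene *Tgif1* rose by 0.31 with BGP.

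*Smad7*, the inhibitory SMAD, measured 17.5, 17.7 and 18.5 CPM in Control and 21.5, 21.8 and 19.8 with BGP, without overlap, and its log2FC of 0.23 did not pass (edgeR FDR 0.103). The related corepressor gene *Ski* had log2FCs of 0.05, 0.02 and 0.03 in the 3 comparisons, none past the threshold. *Smad3*, a transducer of the signal, in BGP exceeded NaHPO4 by 0.14 (FDR 0.0188), a call lost without BGP replicate 2 or 3 (0.0766 or 0.0617) or NaHPO4 replicate 3 (0.116).

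Of 13 tested target genes of TGF-β, 4 rose and 1 fell with BGP, 2 rose and 6 fell with NaHPO4, and 9 were higher and 0 lower with BGP than with NaHPO4. Median log2FCs were 0.10, -0.22 and 0.21. *Ccn2*, which encodes a matricellular growth factor, was 41.5, 36.6 and 39.7 CPM in Control, 76.4, 82.2 and 69.8 with BGP, and 63.3, 59.7 and 60.6 with NaHPO4. No condition overlapped another, and both treatments were above Control, with a log2FC of 0.96 for BGP (edgeR FDR 8.03e-16) and 0.64 for NaHPO4 (FDR 7.4e-11). *Bhlhe40*, a transcription factor gene, rose by 0.48 with BGP and 0.27 with NaHPO4, and *Junb* rose by 0.42 with BGP.

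*Acta2*, the smooth muscle actin gene, was 451, 455 and 415 CPM in Control, 477, 508 and 493 with BGP, and 303, 361 and 323 with NaHPO4. The conditions did not overlap. It fell by 0.42 with NaHPO4 (edgeR FDR 5.7e-09) and in BGP exceeded NaHPO4 by 0.58 on the log2 scale (FDR 4.29e-12), and its rise of 0.16 over Control (FDR 0.0315) was lost without Control replicate 3 (0.211) or BGP replicate 2 or 3 (0.189 or 0.0772). *Tgfb1i1*, a focal adhesion adaptor gene, fell by 0.29 with NaHPO4. The list shares *Col1a1* with the osteoblast markers.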

How the data were processed

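The 9 libraries were grouped by the condition and replicate number in their labels (3 Control, 3 BGP, 3 NaHPO4). The authors prepared stranded poly(A) libraries and mapped the reads to GRCm39 with the AIR software, and the submitters' processing notes name FastQC and edgeR. The aligner, the counting program and the use of strand are not given in the sources used here. The authors deposited whole-number counts per Ensembl gene, not normalized, which were used for all tests. They also deposited a TMM table, a signal in which the counts of each library are multiplied by a factor of its own, neither CPM nor divided by length, which served for symbols and for limma. No authors' fold changes were used, and 0 columns belonged to other samples.

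Genes were filtered with filterByExpr (count minimum 10), scaled by TMM and fitted with glmQLFit and glmQLFTest of edgeR 4.0.16 to all 9 libraries, with Benjamini-Hochberg adjustment over 13679 genes. Adjusted p-values are given as FDR, and levels as TMM-normalised CPM with SDs over 3 libraries. Standard errors came from the F statistic. At the lowest depth 10 counts are under 1 CPM, and intervals cover these libraries only.

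Exon lengths and positions were read from a GENCODE annotation of the same build, GRCm39, newer than the authors' one, which held 13631 of the 13679 tested gene IDs. The promoter windows carry the coordinates of another build (GRCm38.p6), and no coordinates were converted.

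The genes, lists, markers and tests were chosen with earlier results of these data known. Named were all 10 genes, up to 3 genes with the largest absolute log2FC past the FDR threshold per list and comparison, *Skil*, *Smad7*, *Ski*, *Pmepa1*, *Fgf23* and *Dmp1*, and the 5 genes most correlated with a DEG among the 10. Other genes, such as neighbours and untested genes, were named after their values were seen. Some genes that this rule names are not reported here.

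Alternatives were other scalings, filters and edgeR tests, DESeq2 1.42.0, limma 3.58.1 on log2(value + 1) of the TMM table, fits of only the groups compared, a replicate block, and fits that omit a library. A limma fit with an intensity trend was chosen after seeing the data. The scripts were tested on simulated data with known changes. R 4.3.3, Python 3.11.15, pandas 2.3.3 and matplotlib 3.10.9 were used.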

Additional observations from a re-analysis of the deposited data

How the results depend on the processing

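Over 19 alternatives, 537 of 570 values of the 10 genes stayed on their side of the FDR threshold and 33 lost a call. The sign changed in 25 values, all of log2FCs within 0.08 of 0 that passed neither in the reported fit nor in the alternative, and in 0 of the called changes. For BGP versus Control, 1 of the 10 genes was called with total counts, without a filter, with DESeq2 and with limma with an intensity trend. Limma without a trend called 0, 1 and 0 of the 10 genes for BGP versus Control, NaHPO4 versus Control and BGP versus NaHPO4, 4, 8 and 4 of the listed pathway genes and 51, 224 and 84 of all tested genes, beside 346, 1009 and 736 by edgeR. With the trend it called 352, 1021 and 720 of all genes. The cause was not tested.

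With each library left out in turn, 1 to 2, 2 to 3 and 3 to 5 of the 10 genes were called, 11 to 14, 21 to 28 and 20 to 28 of the listed genes, and 202 to 406, 650 to 992 and 478 to 769 of all genes. The lowest counts of all genes came without BGP replicate 1 (202 and 478) and without Control replicate 1 (650). BGP versus Control also fell to 218 without Control replicate 1 and to 221 without BGP replicate 2. Among the 10 genes, 3 were called between BGP and NaHPO4 without BGP replicate 1 and without BGP replicate 2.

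Replicate numbers were shared between conditions, and deviations of same-numbered libraries correlated between -0.00920 and 0.0426 over 9 pairs. The same-numbered pairs of Control with NaHPO4 had 0.0301, 0.0426 and 0.0409. Pairs of these conditions with different numbers ranged from -0.0456 to 0.00218. Whether same-numbered libraries shared more than the number was not tested. With the replicate number as a block, 2, 3 and 5 of the 10 genes, 13, 27 and 27 listed genes and 351, 996 and 749 of all genes were called. In 1 of 9 libraries the correlation was highest with its own number in both other conditions.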

Other observations

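The activin branch, which signals through the same SMAD2 and SMAD3, was described by 10 tested genes of 12 listed. For BGP versus Control 0 passed by edgeR or DESeq2, and 1 was lower at an unadjusted p below 0.05. With NaHPO4 *Fst*, which encodes the activin-binding follistatin, and *Inha*, the inhibin α subunit gene, fell. *Fst* measured 302, 304 and 297 CPM in Control, 303, 315 and 302 with BGP, and 267, 284 and 285 with NaHPO4. Its NaHPO4 libraries were the lowest, with a log2FC of -0.11 versus Control (edgeR FDR 0.0329) and of 0.14 for BGP versus NaHPO4 (FDR 0.00926). The decline was lost without Control replicate 1, 2 or 3 (FDR 0.107, 0.0933 or 0.0509) or NaHPO4 replicate 1 or 2 (0.182 or 0.0507), and the difference between treatments without BGP replicate 2 (0.0739) or NaHPO4 replicate 1 (0.0651).

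*Inha* was 5.19, 6.40 and 4.76 CPM in Control, 4.60, 4.67 and 4.08 with BGP, and 4.51, 3.65 and 3.48 with NaHPO4. Its log2FC with NaHPO4 was -0.49 (edgeR FDR 0.0422), a call made in 9 of 19 alternatives and lost without Control replicate 1 or 2 (0.0807 or 0.241), BGP replicate 2 (0.0510) or NaHPO4 replicate 2 or 3 (0.146 or 0.160). *Inhba*, the activin A subunit gene, ranged from 39.6 to 44.5 CPM over all libraries with log2FCs of 0.05, 0.03 and 0.02 in the 3 comparisons.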
